A study of Mus musculus with 36 samples.

Results

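Car9 (ENSMUSG00000028463) encodes carbonic anhydrase IX, an enzyme of the cell surface whose transcript is widely used as a readout of low oxygen in tumours. Libraries with high Car9 were compared with libraries with low Car9 to ask which other transcripts moved with it across 36 subcutaneous mouse tumours, and whether they did so in every kind of tumour. Bulk mRNA was sequenced, 1 library for each tumour, and levels are given as CPM, the reads of a gene per 1000000 reads assigned to genes. Of the 36, 35 (all but PancO2 anti-PD-1 71) were put into 3 classes. In 11 libraries the class II gene H2-Ea-ps, annotated as a polymorphic pseudogene, was above 10 CPM. In 12 others Cp, which encodes the copper-carrying plasma protein ceruloplasmin, was above 1000 CPM, and 12 passed neither limit. Members were chosen by their measured Car9 CPM: within each class the 5 libraries with the highest Car9 are called high and the 5 with the lowest low, which gave 15 high and 15 low libraries, 30 of the 36 in all. The 5 libraries between them were not compared. These groups were drawn from a measured transcript, so every difference below is an association with the Car9 level of the same libraries, and neither oxygen nor a treatment was tested by it.

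The labels name 3 transplanted lines, all grown under the skin of wild type mice aged 12 weeks. MC38 is of colon origin and was carried in C57BL/6J mice, CT26 is also of colon origin and was carried in BALB/c mice, and PancO2 is of pancreatic origin and was carried in C57BL/6J mice. Mice of each line were given antibody at 10 mg/kg into the peritoneum, either α-CTLA4, α-PD-1 or an IgG from rat serum as the control, and tumours were taken at end stage. All 9 labelled groups were found among the 30 libraries. The 3 expression classes did not follow the labels: each class held libraries labelled with all 3 lines, and the class rather than the line was used as the block. The labels of single libraries may therefore be wrong, and each count by labelled line or treatment holds only as far as they are right. The mouse numbers in the labels are all different, and p-values measure the spread between these tumours.

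Cells sense oxygen through the prolyl hydroxylases encoded by the Egln genes, which mark the alpha subunits of the hypoxia-inducible factors (HIF) for recognition by the von Hippel-Lindau protein and for destruction while oxygen is present. When oxygen falls, the alpha subunits pair with the partner protein encoded by Arnt, bind short DNA motifs with the core ACGTG or GCGTG, and raise genes of glucose uptake, glycolysis, mitochondrial turnover, acid export and vessel growth. Car9 is a classic target of this pathway, and several of its other targets, such as Egln3, act back on it.

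Car9 itself set the groups and is described without a test. Among libraries with H2-Ea-ps, it stood at 72.3, 65.2, 41.996, 41.4 and 32.1 CPM in the high group and at 30.3, 29.01, 24.8, 15.7 and 13.2 CPM in the low group, with the library between at 30.9 CPM. Among libraries with high Cp, it stood at 63.7, 49.7, 40.6, 40.6 and 35.9 CPM in the high group and at 26.5, 24.7, 20.6, 19.3 and 11.2 CPM in the low group, with those between at 33.6 and 32.7 CPM. Libraries of the third class carried far less. Their high group had 4.17, 3.796, 3.38, 3.26 and 3.19 CPM, their low group 2.73, 2.61, 2.57, 2.17 and 1.92 CPM, and those between 3.16 and 2.89 CPM. The ratio of the group means was 2.24 in the H2-Ea-ps class, 2.26 in the Cp class and 1.48 in the third class. The 95% Poisson counting intervals of a high and a low library overlapped in 2 of 25 pairs in the H2-Ea-ps class, in 0 of 25 in the Cp class and in 15 of 25 in the third class. Car9 thus separated the libraries of the third class least firmly. At the class limits, the lowest H2-Ea-ps level inside that class was 32.8 CPM and the highest outside it 0.0845 CPM, while Cp was 1389 CPM just inside and 611 CPM just outside its limit.

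**Figure D1:**
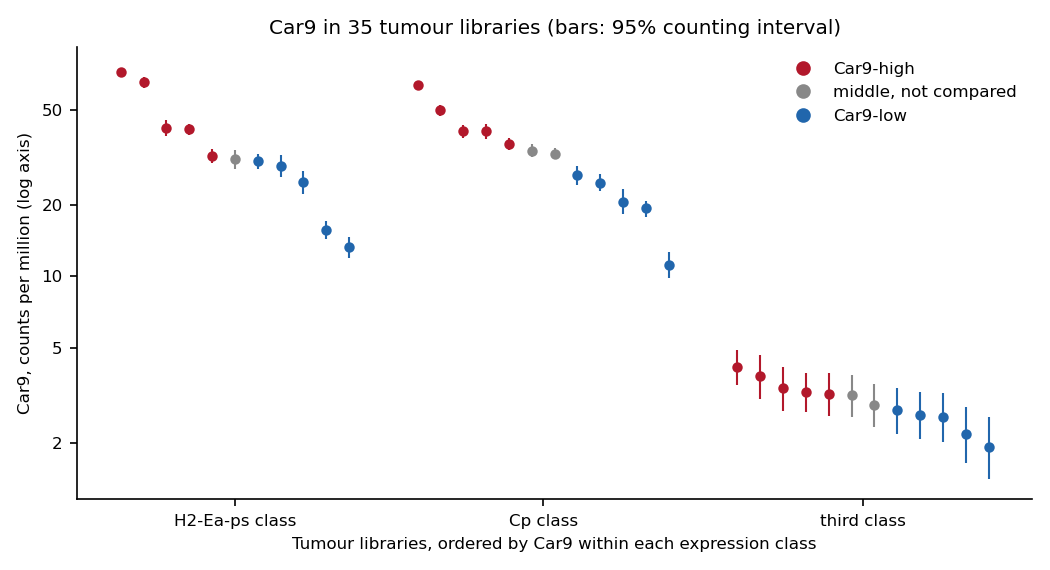
Car9 in CPM on a log axis for the 35 ranked libraries, ordered within each class, with the 95% counting interval of each library as a bar. Red points are the 5 high and blue points the 5 low libraries of a class, and the third class spans only 1.92 to 4.17 CPM.

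Totals ran from 11821687 to 41751023 counts over the 35 libraries, and every pair of libraries differed by more than sampling noise. The left-out library had 7883106 counts, 15.7% of them from mitochondrial genes, where the high libraries had 2.80% to 4.35% and the low libraries 2.996% to 4.24%. Its Car9 level was 22.8 CPM. The labelled treatments were not spread evenly over the groups: 7 high and 2 low libraries were labelled IgG, 5 and 6 anti-CTLA4, and 3 and 7 anti-PD-1. In the third class, 3 high and 0 low libraries were labelled PancO2 and 0 high and 3 low libraries MC38. Summed epithelial markers (Epcam, Cdh1, Krt8, Krt18 and Krt19) ran over 577 to 1186 CPM in the Cp class, 64.4 to 430 CPM in the third class and 8.80 to 43.7 CPM in the H2-Ea-ps class, so the epithelial markers that a colon or pancreatic line may carry were low in the last of these.

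Before the levels, the sequences before the start sites of 5 genes the results turn on are shown: Car9, which set the groups, Ankrd37, Bnip3 and Pgk1, which rose with it, and Cda, which rose with it without a match in this window. Each is the 250 bases before the RefSeq start of the gene in GRCm38.p6, printed 5′ to 3′ on the strand of the gene, with capitals marking ACGTG or GCGTG on either strand (CACGT or CACGC when read on the other). Matches can share letters, as in the CACGTG of Bnip3.
Car9, chr4:43506776-43507025, plus strand: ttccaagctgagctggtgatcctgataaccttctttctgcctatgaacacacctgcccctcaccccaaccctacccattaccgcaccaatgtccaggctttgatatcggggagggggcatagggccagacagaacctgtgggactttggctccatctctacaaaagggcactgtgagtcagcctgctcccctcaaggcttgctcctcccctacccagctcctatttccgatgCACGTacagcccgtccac
Ankrd37, chr8:45999851-46000100, minus strand: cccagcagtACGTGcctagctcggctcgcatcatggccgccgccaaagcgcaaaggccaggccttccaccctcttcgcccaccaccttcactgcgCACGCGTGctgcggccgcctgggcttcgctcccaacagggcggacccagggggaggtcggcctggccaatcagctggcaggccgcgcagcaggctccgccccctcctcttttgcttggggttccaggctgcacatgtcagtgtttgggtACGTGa
Bnip3, chr7:138909507-138909756, minus strand: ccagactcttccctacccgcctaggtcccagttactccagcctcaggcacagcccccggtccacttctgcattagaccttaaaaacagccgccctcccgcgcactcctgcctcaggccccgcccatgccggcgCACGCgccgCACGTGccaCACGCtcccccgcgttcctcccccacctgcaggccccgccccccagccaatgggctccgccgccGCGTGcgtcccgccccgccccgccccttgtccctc
Pgk1, chrX:106186850-106187099, plus strand: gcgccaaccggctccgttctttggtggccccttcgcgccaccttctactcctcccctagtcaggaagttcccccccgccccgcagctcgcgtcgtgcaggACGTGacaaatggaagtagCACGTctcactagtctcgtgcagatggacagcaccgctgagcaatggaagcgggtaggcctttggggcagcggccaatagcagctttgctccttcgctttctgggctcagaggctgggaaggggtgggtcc
Cda, chr4:138367956-138368205, minus strand: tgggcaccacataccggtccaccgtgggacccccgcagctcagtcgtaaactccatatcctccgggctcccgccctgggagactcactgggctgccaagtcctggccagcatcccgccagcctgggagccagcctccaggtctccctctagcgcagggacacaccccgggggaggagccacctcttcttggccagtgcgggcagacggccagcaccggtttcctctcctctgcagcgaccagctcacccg

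Car9 held 1 match, which began 18 bases before the start. Ankrd37 held 4, Bnip3 5, Pgk1 2 and Cda 0. Over the promoters of the same length, 38.6% of all 32851 in the RefSeq table and 52.6% of the 14768 found for tested genes held either motif. The share was 60.9% of 540 promoters of genes called higher, 43.9% of 314 promoters of genes called lower, and 76.5% of 34 promoters of the glucose uptake and glycolysis genes. The median number of CG pairs differed too, at 14 for tested genes, 17 for genes called higher and 11.5 for genes called lower, and each motif holds such a pair. A match is a stretch of letters and not a binding site.

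With class as a blocking term, 878 of the 16676 genes tested other than Car9 differed between high and low libraries at an adjusted p under 0.05 by edgeR's quasi-likelihood test (5.27%), 560 of them higher (3.36%) and 318 lower (1.91%) in the high libraries. The changes were small, with a median absolute log2 fold change of 0.30 among the called genes, and 48 of them reached an absolute log2 fold change of 1. Of the 878, 844 had the same sign in all 3 classes. The split depended on the scaling: with library size alone it was 336 higher and 542 lower, while the median over all genes moved from 0.0039 to -0.03. With terms for the labelled line and treatment added, which the groups did not share evenly, 1117 genes were called, 671 of them among the 878. The fold changes below are log2 ratios of high over low in this blocked fit, with the standard error (SE), unless a class is named.

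Among the genes of the HIF pathway itself, 2 prolyl hydroxylases rose and 1 alpha subunit fell, out of 9 genes tested. Values are listed from the highest to the lowest library of each group. Egln3, a prolyl hydroxylase that is itself a HIF target, rose by 0.68 ± 0.13 (SE; adjusted p = 0.00479, edgeR). Its level was far lower in the H2-Ea-ps class than elsewhere, with 11.1, 7.54, 7.51, 7.15 and 6.398 CPM in the high libraries against 6.13, 5.01, 4.24, 3.89 and 3.66 CPM in the low libraries. The Cp class had 436, 355, 354, 308 and 304 CPM against 261, 199.5, 198, 159.6 and 153 CPM and the third class 364, 223, 198, 196 and 164 CPM against 255, 195, 185, 143 and 124 CPM, in the same order. The high and low groups did not overlap in the first and second of these classes and overlapped in the third. Across all genes tested, high libraries lay wholly above low ones for 1.45% in the H2-Ea-ps class, 1.37% in the Cp class and 0.216% in the third class, and wholly below for 1.73%, 2.05% and 0.774%.

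Egln1, the main oxygen sensor among the hydroxylases, rose by 0.44 ± 0.08 (SE; adjusted p = 0.00446, edgeR). It ranged over 173 to 237 CPM against 116 to 149.8 CPM in the H2-Ea-ps class and over 153 to 181 CPM against 107 to 126 CPM in the Cp class, without overlap in either. In the third class it ranged over 139.8 to 236 CPM against 128 to 202 CPM, with overlap. Epas1, which encodes the HIF-2 alpha subunit and is strongly expressed by endothelium, fell by 0.27 ± 0.08 (SE; adjusted p = 0.0425, edgeR), a call that held in 13 of 30 fits that each left out 1 library. Hif1a stood at a log2 fold change of 0.07 (adjusted p = 0.409), Arnt at 0.01 and Vhl at 0.13, and none of these was called.

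Glucose uptake and glycolysis had the largest share of called genes among the 28 lists. Of 22 genes tested, 17 were called higher and 0 lower, with a median log2 fold change of 0.45 beside 0.0039 for all genes, and the count was 16 or 17 in every fit that left out 1 library. It fell to 8 when all libraries above the median Car9 of each class were compared with all below it, and to 14 without the third class, a setting chosen after seeing the data. Slc2a1, the glucose transporter GLUT1, rose by 0.80 ± 0.16 (SE; adjusted p = 0.00626, edgeR). It ran over 163 to 254 CPM against 99.7 to 154 CPM in the H2-Ea-ps class, over 112 to 224 CPM against 46.3 to 81.2 CPM in the Cp class and over 137 to 327 CPM against 77.04 to 239.5 CPM in the third class, and the groups overlapped in the last alone. Hk2, a hexokinase that traps glucose in the cell, rose by 0.60 ± 0.14 (adjusted p = 0.0126, edgeR), and Pfkp, the platelet form of phosphofructokinase, by 0.69 ± 0.14 (adjusted p = 0.00516, edgeR).

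Pgk1 encodes phosphoglycerate kinase, the first step of glycolysis that yields ATP, and its 2 motif matches are printed above. Its levels were 1301, 1113, 897, 890.3 and 799 CPM in the high libraries against 692, 656, 596, 548 and 445 CPM in the low libraries of the H2-Ea-ps class, 719, 614, 605, 547 and 523 CPM against 399, 364, 356, 339.9 and 270.3 CPM in the Cp class and 448, 384, 338, 304 and 283 CPM against 406, 319, 277, 242 and 186 CPM in the third. All high libraries lay above all low ones in the H2-Ea-ps and Cp classes, whereas 1 of 5 did so in the third. The blocked change was 0.66 ± 0.11 (SE; adjusted p = 0.00193, edgeR). Reads that map to several places had been set aside, so the levels of Pgk1, Gapdh, Eno1, Ldha, Tpi1, Pgam1 and Aldoa, which have processed copies elsewhere in the genome, are uncertain.

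The lower part of the pathway is given with genes beyond the 4 largest changes that the naming rule took from each list. Pkm, the pyruvate kinase of tumours, rose by 0.44, Ldha, which turns pyruvate into lactate, by 0.52, and Pdk1, which keeps pyruvate out of mitochondria, by 0.54, all called. Hk1 and Pdk3 were called at smaller sizes of 0.28 and 0.16. The 5 others were not called, with Eno2 at 0.38, Pfkfb3 at 0.16, Slc2a3 at 0.11, Pfkm at -0.08 and Pfkfb4 at -0.06.

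Acid and lactate handling was less uniform, with 2 of 8 tested genes called higher and 0 lower and a median of 0.23. Slc16a1, the lactate transporter MCT1, rose by 0.35 ± 0.08 (adjusted p = 0.0174, edgeR), and Bsg, the chaperone of such transporters, by 0.29 ± 0.07 (adjusted p = 0.0213, edgeR). Slc16a3, the lactate exporter MCT4, had 0.46 (adjusted p = 0.05202) and Car12, the other tumour-associated carbonic anhydrase of the cell surface, 0.66 (adjusted p = 0.116), and neither was called. Both calls were lost when all libraries above the median Car9 of each class were compared with all below it.

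Among genes of glycogen metabolism, 2 of 7 tested were called higher and 0 lower. Gys1, the glycogen synthase of muscle and most other tissues, rose by 0.50 ± 0.11 (adjusted p = 0.00975, edgeR) and the branching enzyme Gbe1 by 0.38 ± 0.11 (adjusted p = 0.03605, edgeR), the latter in 15 of 30 fits without 1 library.

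Of 8 genes with which cells adjust their mitochondria to low oxygen, 4 were called higher and 0 lower, and the median was 0.46. Bnip3 (ENSMUSG00000078566), which marks mitochondria for removal, had the largest change among them. Its levels were 385, 347, 245, 238 and 214 CPM in the high libraries against 184, 175, 159.7, 134 and 109 CPM in the low libraries in the H2-Ea-ps class. They were 268, 229.7, 217, 203 and 188 CPM against 119, 112, 96.8, 81.98 and 69.4 CPM in the Cp class and 245, 156, 153, 103 and 86.1 CPM against 152, 107, 95.7, 78.2 and 63.8 CPM in the third. No high library was below a low one in the H2-Ea-ps and Cp classes, and in the third class 3 of 5 were above all low ones. The blocked change was 0.93 ± 0.15 (SE; adjusted p = 0.00175, edgeR), and within classes it was 0.95 ± 0.25, 1.26 ± 0.25 and 0.60 ± 0.25 in the order just given. Bnip3 was called in all 30 fits without 1 library and in all 16 other settings that gave it a test and asked for no minimum fold change.

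The other called members were Higd1a, a small protein of the inner mitochondrial membrane, at 0.66 ± 0.12 (adjusted p = 0.00446, edgeR), Fam162a, a HIF-responsive mitochondrial protein, at 0.61 ± 0.10 (adjusted p = 0.00162, edgeR), and Mxi1, an antagonist of Myc, at 0.38 ± 0.07 (adjusted p = 0.00479, edgeR). Bnip3l, the close relative of Bnip3, had 0.25, Ak4 0.53, Cox4i2 0.33 and Ndufa4l2 -0.08, and none passed the test. The respiratory chain and citrate cycle gave 0 calls among 19 genes tested with edgeR, where 5.27% of all genes were called. Of the 19, 4 had an unadjusted p under 0.05, as did 3689 of all 16676 genes. Both counts lay near the share over all genes. With limma-voom 0 were called and with DESeq2's Wald test 1, and values lay between -0.12 (Ogdh) and 0.11 (Cox4i1).

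Regulators and enzymes known to be induced by hypoxia were called higher in 7 of 17 tested and lower in 0. Ankrd37, a small ankyrin-repeat protein with 4 motif matches before its start, changed most. Its levels were 25.3, 21.002, 14.8, 12.98 and 11.2 CPM in the high libraries against 11.96, 11.2, 10.4, 9.63 and 6.11 CPM in the low libraries of the H2-Ea-ps class, with 4 of 5 above all low ones. The Cp class had 29.9, 27.9, 24.6, 18.7 and 18.3 CPM against 9.76, 8.83, 7.06, 7.05 and 5.59 CPM, without overlap, and the third class 25.3, 19.5, 18.5, 11.99 and 10.9 CPM against 18.3, 12.6, 10.4, 8.96 and 6.97 CPM, with overlap. The blocked change was 1.04 ± 0.18 (SE; adjusted p = 0.00291, edgeR) and the change within the Cp class 1.70 ± 0.28 (adjusted p = 0.00142, edgeR).

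Ero1l, which drives disulfide formation in the endoplasmic reticulum, rose by 0.96 ± 0.21 (SE; adjusted p = 0.0109, edgeR). It ran over 799.8 to 1463 CPM against 356 to 832 CPM in the H2-Ea-ps class, 331 to 713 CPM against 97.4 to 225 CPM in the Cp class and 381 to 1197 CPM against 216 to 592 CPM in the third class, and the groups were apart in the Cp class alone. The transcriptional repressor Bhlhe40 rose by 0.61 and the stress-responsive gene Ndrg1 by 0.58. The remaining called members, which had smaller changes, were Sap30, a part of the Sin3 corepressor, at 0.37, and the oxygen-dependent demethylase Kdm3a and hydroxylase Jmjd6 at 0.33 and 0.27. Ddit4, an inhibitor of mTOR signalling, had 0.16 (adjusted p = 0.535) and was not called.

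Secreted and vessel-related factors were called higher in 4 of 13 tested, with a median of 0.27. Vegfa, the main growth factor for vessels, rose by 0.51 ± 0.13 (SE; adjusted p = 0.0238, edgeR). It ran over 273 to 353 CPM against 179 to 280.0 CPM in the H2-Ea-ps class, 274 to 379.7 CPM against 129 to 239.6 CPM in the Cp class and 251 to 619.5 CPM against 228 to 388 CPM in the third, and only the Cp class showed no overlap. The cytokine Mif rose by 0.46 ± 0.10 (adjusted p = 0.0109, edgeR) and the vascular peptide Apln by 0.35 ± 0.09 (adjusted p = 0.0312, edgeR). Apln was called in 25 of 30 fits without 1 library. Adm had 0.45 and Angptl4 0.20, both known targets of HIF, and neither was called. The count was 1 with a term for the mitochondrial share and 2 with a term for keratinocyte markers. Across all other settings it ran from 0, for all libraries above against all below the median Car9 of each class, to 6, for Car9 as a continuous measure, and it was 2 to 5 in fits without 1 library.

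Of 9 collagen-modifying enzymes, the prolyl 4-hydroxylase subunits P4ha1 and P4ha2 were called, at 0.41 ± 0.09 (adjusted p = 0.0138, edgeR) and 0.60 ± 0.16 (adjusted p = 0.0308, edgeR). P4ha2 was called in 22 of 30 fits without 1 library. The lysyl oxidase Lox, at -0.08, and Plod2, at 0.16, were not called.

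**Figure D2:**
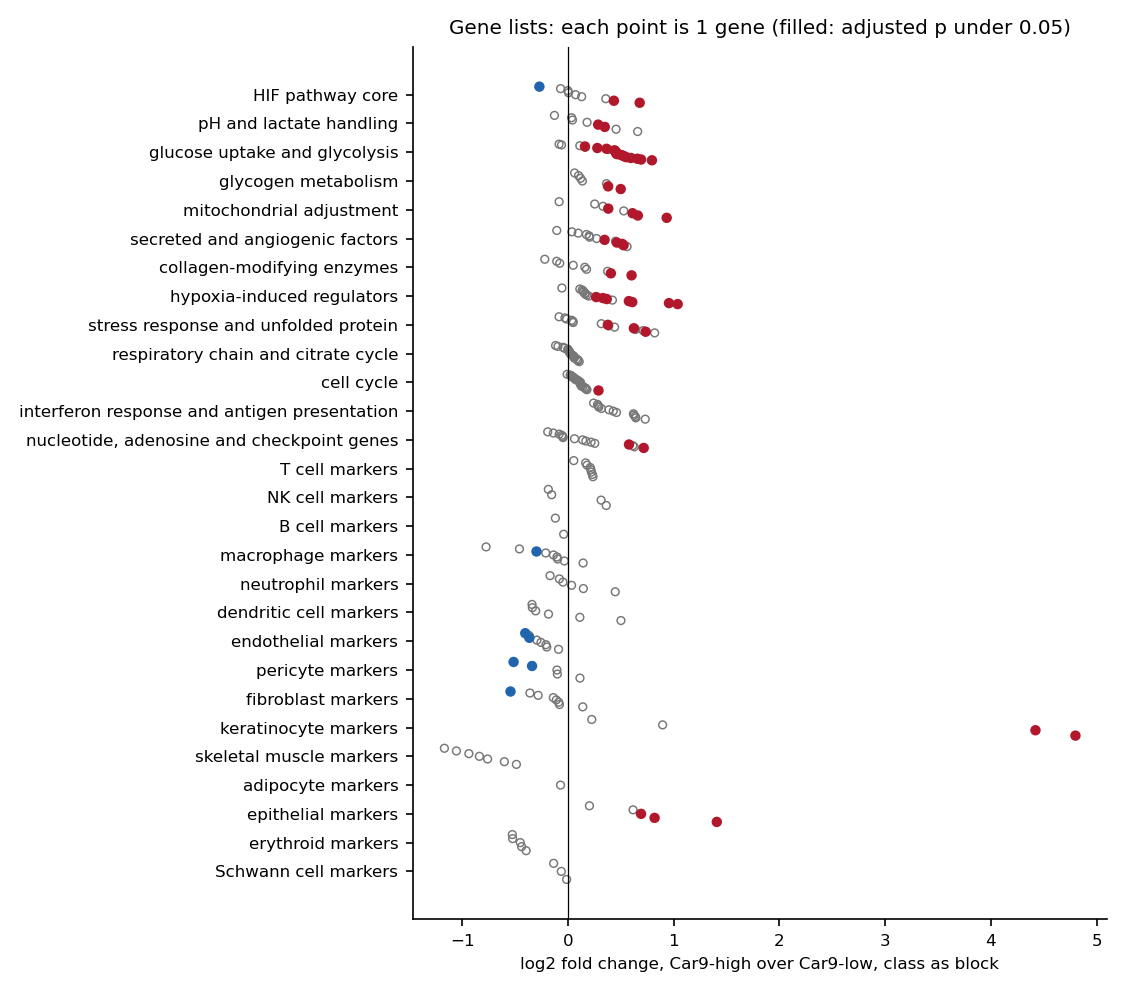
Log2 fold change of high over low libraries in the blocked fit for every tested gene of 28 lists, 1 point a gene, filled where the adjusted p was under 0.05 (red higher, blue lower) and open otherwise. Filled points gather in glucose uptake and glycolysis, with 17 of 22, beside 5.27% of all genes tested. The respiratory chain has 0 of 19, which is near that share.

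**Figure D3:**
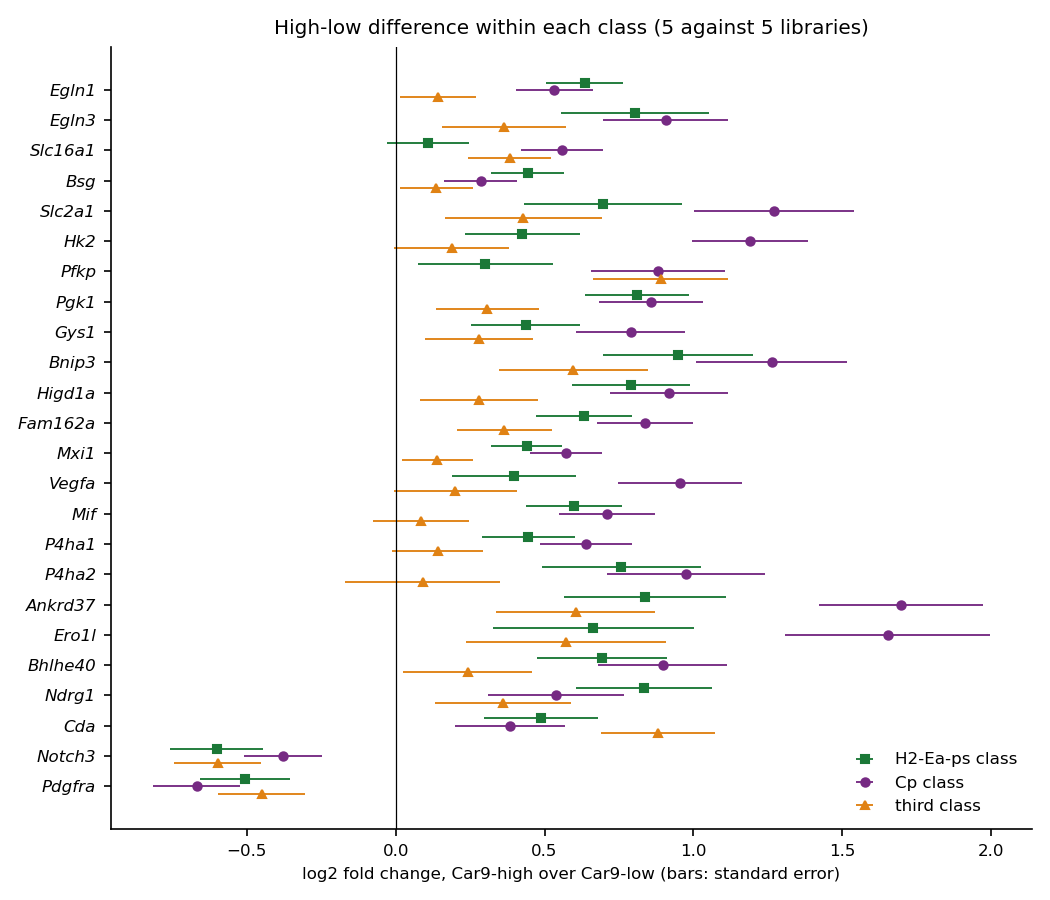
Log2 fold change of high over low within each class for 24 genes, 5 against 5 libraries, with the standard error as a bar. For most genes the Cp class (circles) lies farthest from 0 and the third class (triangles) nearest to it, with Cda, Pfkp and Notch3 among the exceptions to both.

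The medians of these lists within each class are given side by side. The glucose and glycolysis list had a median log2 fold change of 0.52 in the H2-Ea-ps class, 0.62 in the Cp class and 0.19 in the third class. For the mitochondrial adjustment list the values were 0.55, 0.76 and 0.14, and for the secreted factors 0.30, 0.71 and 0.085, in the same order, where the median over all tested genes lay between -0.00019 and 0.017. Within classes, 14 of the 22 glucose and glycolysis genes were called in the Cp class, where 4.72% of all genes were, and 0 in the H2-Ea-ps class and the third class, where 0.00577% and 0.11% were. At an unadjusted p under 0.05, 16 of the 22 were higher in the H2-Ea-ps class, where 7.03% of all genes were, 17 in the Cp class (11.3% of all genes) and 6 in the third class (5.14%). In the same way, 1 was lower in the H2-Ea-ps class (5.19%), 1 in the Cp class (9.04%) and 0 in the third class (4.1%). For no gene of these 3 lists was the difference between classes called by edgeR. The span of Car9 was also narrowest in the third class, where the groups differed 1.48-fold.

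Cda (ENSMUSG00000028755), the cytidine deaminase that salvages pyrimidine nucleosides and the gene the study followed, was one of 2 called higher among 15 genes of nucleotide, adenosine and checkpoint function, with 0 lower. Its levels were 8.43, 8.08, 6.895, 6.41 and 5.64 CPM in the high libraries against 5.58, 5.44, 5.08, 5.04 and 4.96 CPM in the low libraries in the H2-Ea-ps class. In the Cp class they were 20.2, 15.2, 14.7, 13.6 and 13.3 CPM against 14.9, 13.9, 13.5, 9.98 and 9.11 CPM, and in the third class 9.36, 8.74, 6.05, 5.85 and 4.14 CPM against 5.38, 3.68, 3.38, 3.11 and 3.04 CPM. Cda was highest in the Cp class. All 5 high libraries lay above all low ones in the H2-Ea-ps class, 2 in the Cp class and 4 in the third. The blocked change was 0.58 ± 0.11 (SE; adjusted p = 0.00479, edgeR), and it was 0.49 ± 0.19, 0.38 ± 0.18 and 0.88 ± 0.19 in the H2-Ea-ps class, the Cp class and the third class. Cda was called in all 30 fits without 1 library and in all 16 other settings that asked for no minimum fold change. Within the single classes it was not called, with adjusted p of 0.314, 0.238 and 0.0539 (edgeR) in the same order.

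Upp1, a uridine phosphorylase, rose by 0.72 ± 0.21 (adjusted p = 0.0451, edgeR), in 12 of 30 fits without 1 library. P2ry6, a receptor for extracellular UDP, had -0.19 (adjusted p = 0.159), the ectonucleotidase Nt5e 0.25, Cd274, which encodes PD-L1, 0.63 (adjusted p = 0.0617) and Pdcd1, which encodes PD-1, 0.17. None of these was called in the blocked fit. Within the Cp class 4 of the 15 were called, where 4.72% of all genes were, Upp1 among them (adjusted p = 0.0152, edgeR). In each other class 0 were called, where at most 0.11% of all genes were.

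**Figure D4:**
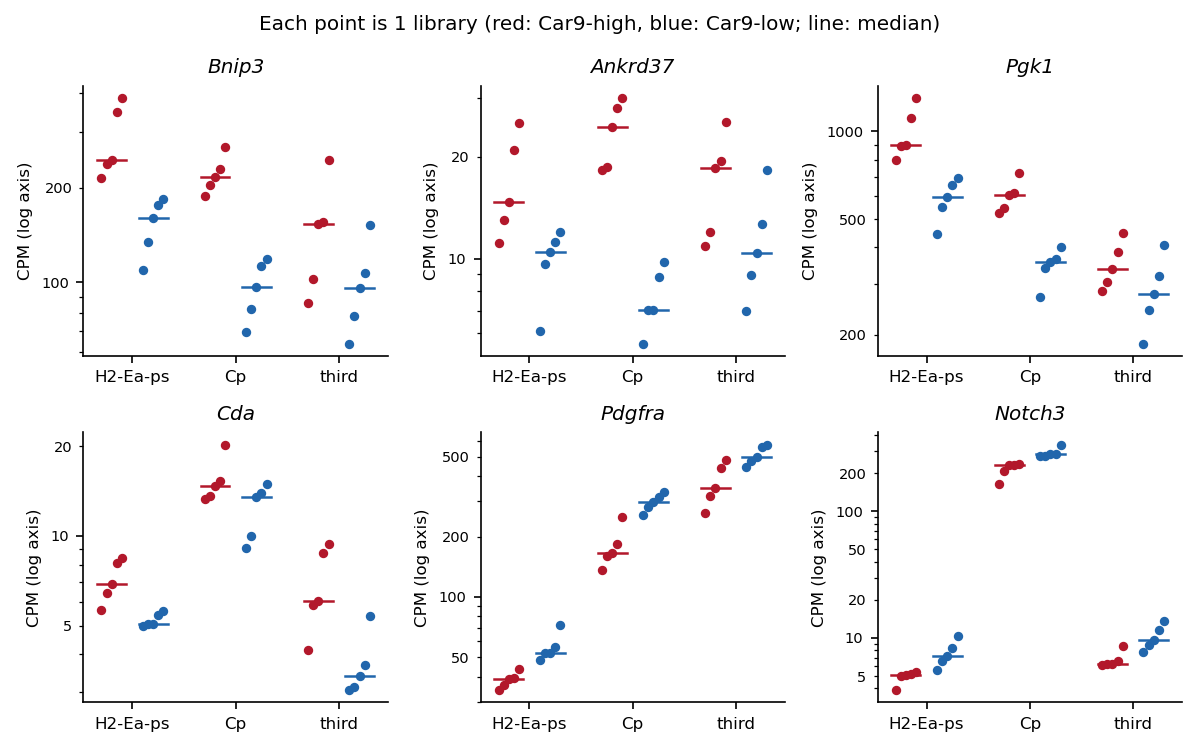
Levels of 6 genes in each of the 30 libraries in CPM on log axes, by class, with red points for high and blue for low libraries and a line at the median of each 5. Bnip3, Ankrd37, Pgk1 and Cda have higher medians in the high libraries of every class, and Pdgfra and Notch3 lower ones.

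In the blocked fit 3 of 15 stress-response genes were called higher: Atf3 at 0.74 ± 0.19 (adjusted p = 0.0274, edgeR), Asns, the asparagine synthetase, at 0.62 ± 0.19 (adjusted p = 0.0476, edgeR) and Atf4, the central activator of the amino acid stress response, at 0.38 ± 0.11 (adjusted p = 0.0472, edgeR). The count was 1 with DESeq2 size factors and with library size alone, and Atf4 and Asns were called in 11 and 10 of 30 fits without 1 library. In the H2-Ea-ps class and the third class 0 of the 15 were called, where 0.00577% and 0.11% of all genes were. Within the Cp class 8 of the 15 were called, where 4.72% of all genes were. Atf4 stood there at 483, 467, 411, 322 and 271 CPM in the high libraries against 237, 229, 207, 201 and 186 CPM in the low libraries, without overlap, and changed by 0.95 ± 0.15 (adjusted p = 0.001201, edgeR). Its changes in the H2-Ea-ps class and the third class were 0.16 ± 0.15 and 0.04 ± 0.15, and the groups overlapped in both. The difference between the Cp class and the mean of the others was not called for Atf4 (adjusted p = 0.0636, edgeR) or Asns (adjusted p = 0.170, edgeR), and among the 15 it was called for Gdf15 alone. Among chaperones of the endoplasmic reticulum, Hspa5 had 0.05, Hsp90b1 0.04 and Pdia4 -0.01, none called.

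Interferon-response and antigen-presentation genes gave 0 calls among 13 with edgeR in the blocked fit. All 13 values were above 0, with a median of 0.43, as were 8535 of all 16676. Isg15 had 0.64 (adjusted p = 0.0596), Gbp2 0.73 and H2-D1 0.28. At an unadjusted p under 0.05 there were 12 of the 13, beside 3689 of all 16676, limma-voom called 0 and DESeq2's Wald test 5. Within the Cp class edgeR called 4 of the 13, where 4.72% of all genes were called. In each other class, where at most 0.11% of all genes were called, it called 0 of the 13. Their medians were 0.22, 0.67 and 0.22 in the H2-Ea-ps class, the Cp class and the third class. Of 23 cell cycle genes, 1 was called higher in the blocked fit, where 3.36% of all genes were, E2f1 at 0.28 ± 0.07 (adjusted p = 0.0282, edgeR). The values of 22 of the 23 were above 0, with a median of 0.12, and Mki67 had -0.01 and Top2a 0.13. Within the Cp class all 23 were above 0 and 0 were called. At an unadjusted p under 0.05, 7 were higher there (11.3% of all genes).

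Every called marker of vessels and their supporting cells was lower in the high libraries. In bulk tissue, fewer cells of a type and less RNA per cell cannot be told apart. All 8 endothelial markers tested had values below 0, and 2 were called, Kdr, the receptor for VEGF, at -0.36 ± 0.10 (adjusted p = 0.0282, edgeR) and Tie1 at -0.40 ± 0.12 (adjusted p = 0.0407, edgeR). Tie1 was called in 16 and Kdr in 27 of 30 fits without 1 library, and Pecam1 had -0.09. The 8 markers together ran over 123 to 189 CPM in high against 195 to 259 CPM in low libraries of the H2-Ea-ps class, without overlap, over 90.9 to 176 against 124 to 224 CPM in the Cp class and over 132 to 237 against 168 to 235 CPM in the third class.

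Of 5 pericyte markers, 2 were called lower. Their sum ran over 86.2 to 111 CPM in high against 113 to 185 CPM in low libraries of the H2-Ea-ps class and over 549 to 739 against 763 to 986 CPM in the Cp class, without overlap, and over 329 to 411 against 348 to 429 CPM in the third class, with overlap. Within the Cp class, Cspg4 and Rgs5 had values above 0, at 1.07 (adjusted p = 0.0538, edgeR) and 0.81 (adjusted p = 0.157, edgeR), and neither was called. Notch3, a receptor that maintains mural cells, was far more abundant in the Cp class than elsewhere. Its levels were 5.404, 5.22, 5.09, 5.03 and 3.88 CPM in the high libraries against 10.4, 8.31, 7.19, 6.61 and 5.599 CPM in the low libraries in the H2-Ea-ps class, 236, 231, 230.5, 207 and 164 CPM against 335, 283, 281, 275 and 273 CPM in the Cp class and 8.59, 6.58, 6.28, 6.22 and 6.17 CPM against 13.7, 11.6, 9.57, 8.81 and 7.74 CPM in the third class. High libraries lay wholly below low ones in the H2-Ea-ps and Cp classes, and 4 of 5 did so in the third. The blocked change was -0.51 ± 0.08 (SE; adjusted p = 0.00175, edgeR). Pdgfrb, the PDGF receptor of mural cells, changed by -0.34 ± 0.09 (adjusted p = 0.0238, edgeR), with 0.02 ± 0.13 in the third class.

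Pdgfra, the PDGF receptor of fibroblasts, was the only called gene of 8 fibroblast markers. The H2-Ea-ps class had 43.8, 39.5, 38.7, 36.3 and 34.2 CPM in the high libraries against 72.6, 56.2, 52.5, 52.3 and 48.2 CPM in the low libraries, the Cp class 252, 184, 166, 159.9 and 136 CPM against 336, 315, 297, 279.8 and 255 CPM and the third class 480.4, 440.1, 350.4, 317 and 263 CPM against 574, 561, 497, 476 and 442 CPM. The groups were apart in the H2-Ea-ps and Cp classes, with 4 of 5 high libraries below all low ones in the third. The blocked change was -0.54 ± 0.08 (SE; adjusted p = 0.00162, edgeR). It was called in all 30 fits without 1 library and in all 16 other settings that asked for no minimum fold change. The collagen genes Col1a1, at -0.11, and Col3a1, at -0.36, were not called.

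Few immune cell markers were called in the blocked fit, where 5.27% of all genes tested were. In lists this short, a count of 0 or 1 is near that share. T cells gave 0 calls of 8, NK cells 0 of 4, B cells 0 of 2, neutrophils 0 of 6 and dendritic cells 0 of 6 with edgeR in the blocked fit, with limma-voom and with DESeq2's Wald test, where 1 gene of these lists, the dendritic cell factor gene Zbtb46, had an unadjusted p under 0.05 in edgeR. The T cell co-receptor gene Cd8a had 0.24 (adjusted p = 0.645). Of 9 macrophage markers, Csf1r, the receptor for their main growth factor, was called lower at -0.30 ± 0.09 (adjusted p = 0.0479, edgeR), in 10 of 30 fits without 1 library. Mrc1 had -0.46 and Cd163 -0.77, and neither was called. In the Cp class 6 of the 9 had values above 0, as did 8458 of all 16676 genes there. The H2-Ea-ps class had 0 of the 9 above 0 and the third class 1. The joint edgeR test of differences among the classes called 0 of the 9. Within the Cp class 1 of the 9 was called, higher, where 4.72% of all genes were called, and Csf1r had -0.07 ± 0.15. The 9 macrophage markers together ran over 887 to 1317 CPM in high against 1209 to 1767 CPM in low libraries of the H2-Ea-ps class. They ran over 1370 to 1964 against 1130 to 1883 CPM in the Cp class and over 1723 to 1964 against 1941 to 2558 CPM in the third class. The groups overlapped in each class. Erythroid, Schwann cell and adipocyte markers gave 0 calls of 5, 3 and 1 by the same tools, and 0 at an unadjusted p under 0.05.

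Markers of tissue next to the tumour moved with a few libraries. Of 8 keratinocyte markers 4 were tested, and 2 of these, the basal keratins Krt14 and Krt5, were called higher, at 4.80 ± 1.03 (adjusted p = 0.00937, edgeR) and 4.42 ± 1.08 (adjusted p = 0.0195, edgeR). Krt14 stood at 209.8, 8.08, 3.79, 0.0995 and 0.03497 CPM in the high libraries against 2.13, 0.329, 0.1301, 0.0759 and 0.0422 CPM in the low libraries of the Cp class and at 46.3, 19.5, 1.93, 0.532 and 0.461 CPM against 1.37, 1.23, 0.911, 0.812 and 0.458 CPM in the third class. In the H2-Ea-ps class it had at most 0.254 CPM in any library. The groups overlapped in each class, and the high values were found in single libraries. The library labelled PancO2 IgG 48 had 554 CPM over the 8 markers, and without it the number of genes called in the blocked fit was 969. The sum ran over 2.91 to 554 CPM in high and 2.77 to 19.4 CPM in low libraries. Adding the sum as a term to the fit gave 612 called genes, 532 of them among the 878, and kept the number of called glycolysis genes at 17. With limma-voom neither keratin was called (adjusted p = 0.28 for Krt14).

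Skeletal muscle markers gave 0 calls of 7 by edgeR, limma-voom and DESeq2 and 0 at an unadjusted p under 0.05, all with values below 0, and ran over 3.61 to 162 CPM in high and 2.57 to 757 CPM in low libraries. The library with 757 CPM was that labelled MC38 anti-PD-1 18, the lowest for Car9 in the Cp class. Without it 409 genes were called in the blocked fit. A term for the summed muscle markers gave 671 called genes, 638 of them among the 878. Among 5 epithelial markers 3 were called higher, Krt19 at 1.41 ± 0.30 (adjusted p = 0.00903, edgeR), Krt18 at 0.82 ± 0.21 (adjusted p = 0.0254, edgeR) and Cdh1, E-cadherin, at 0.69 ± 0.20 (adjusted p = 0.0359, edgeR). Cdh1 was called in 18 of 30 fits without 1 library, and the count of 3 ran from 0 to 3 in the other settings. Krt19 had 51.3, 44.4, 32.8, 31.1 and 20.7 CPM in the high libraries against 15.2, 12.4, 11.9, 10.4 and 6.03 CPM in the low libraries of the Cp class, without overlap, and at most 0.93 CPM in the libraries of the other classes.

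The genes with the largest changes among those of at least 5 CPM with 1 sign in all classes included few members of the lists. The edgeR adjusted p was under 0.05 for each of the 24. Those that rose most were Krt14, Krt5, Pkp1, a plaque protein of desmosomes, at 2.11 ± 0.38, Cdsn, the adhesive protein corneodesmosin of the outer epidermis, at 1.47 ± 0.38, Krt19, Ido2, a relative of the tryptophan-degrading enzyme Ido1, at 1.37 ± 0.27, Cdh17, an intestinal cadherin, at 1.31 ± 0.26, Dynap at 1.19 ± 0.21, Nipal1 at 1.06 ± 0.28, Ankrd37, the kallikrein Klk10 at 0.96 ± 0.21 and Ero1l. Pkp1 ran over 39.6 to 66.6 CPM against 9.55 to 23.95 CPM in the Cp class and reached at most 4.99 CPM in the others, with 0 counts in all 5 low libraries of the H2-Ea-ps class. Dynap changed by 1.33 ± 0.36, 1.08 ± 0.35 and 1.15 ± 0.41 in the H2-Ea-ps class, the Cp class and the third class. Cdsn was less even, at 0.25 ± 0.43, 3.07 ± 0.51 and 1.34 ± 0.67 in the same order.

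Those that fell most were the heat-gated channel Trpv1 at -1.74 ± 0.25, the lipid transporter genes Abca8a at -1.48 ± 0.36 and Abca9 at -0.96 ± 0.20, the glutamine transporter Slc38a3 at -1.02 ± 0.20, the organic anion transporter Slco2b1 at -0.95 ± 0.22, the carbonyl reductase Cbr2 at -0.91 ± 0.27, Lrrc75b at -0.88 ± 0.20, the mechanically gated channel Piezo2 at -0.84 ± 0.21, Rasgrp2, an activator of Rap1, at -0.79 ± 0.20, the BH3-only gene Bmf at -0.72 ± 0.14, the transcription factor gene Osr2 at -0.71 ± 0.14 and Rflna at -0.69 ± 0.18. Trpv1 was well expressed in 1 class alone. It stood at 9.65, 8.099, 7.94, 7.76 and 5.52 CPM in the high libraries against 50.8, 46.2, 29.05, 28.4 and 18.7 CPM in the low libraries of the Cp class and at most at 0.295 CPM in any library of the other classes. Abca9 changed by -1.08 ± 0.39, -0.82 ± 0.36 and -0.99 ± 0.35 in the H2-Ea-ps class, the Cp class and the third class. Others were less even across the classes. In the same order, Slc38a3 changed by -1.25 ± 1.23, -1.08 ± 0.21 and -0.06 ± 0.72. Rasgrp2 changed by -0.16 ± 0.30, -1.58 ± 0.28 and -0.53 ± 0.28, and Cbr2 by -1.01 ± 0.44, -0.10 ± 0.40 and -1.67 ± 0.42. Cbr2 was called in 8 of 30 fits without 1 library.

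Within the single classes, the number of called genes differed widely. Within the Cp class 817 of 17318 genes were called (4.72%), 541 higher and 276 lower, within the third class 19 (0.11%), all higher, and within the H2-Ea-ps class 1 (0.00577%), Rcor2, a corepressor subunit, at 0.59 ± 0.10 (adjusted p = 0.0299, edgeR), a gene named after its value was seen. At an unadjusted p under 0.05 by the same test the counts were 3477, 1591 and 2071. Of the 817 genes, 317 were also among the 878, and 605 had the same sign in the H2-Ea-ps class and 618 in the third class. These counts rested on single libraries: they ran from 229 to 1502 in the Cp class, from 0 to 218 in the third class and from 0 to 15 in the H2-Ea-ps class when 1 of the 10 libraries was left out. With limma-voom they were 704, 0 and 5. The counts also rest on an estimate of the spread shared by all 30 libraries. From the 10 libraries of the Cp class alone its count was far lower, as given in the last section.

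The genes called in the third class included Cdh17, whose levels there were 10.9, 9.36, 3.66, 3.16 and 1.94 CPM in the high libraries against 1.66, 1.35, 1.105, 1.09 and 0.751 CPM in the low libraries, without overlap, at a change of 2.26 ± 0.43 (adjusted p = 0.0347, edgeR). Cdh17 is normally made by intestinal epithelium. It ran over 7.12 to 18.01 CPM against 4.47 to 8.46 CPM in the Cp class and over 2.78 to 12.4 CPM against 2.88 to 6.502 CPM in the H2-Ea-ps class. Of the 19, 6 were also called in the blocked fit and 6 had an unadjusted p under 0.05 in another class. The count of 19 went to 0 with limma-voom and to 218 without the library labelled CT26 IgG 29.

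Of the 17318 genes other than Car9, 0 (0%) were called with 1 sign in all 3 classes at an adjusted p under 0.05. This held for edgeR with TMM or DESeq2 size factors and for limma-voom. Car9 set the groups and was left out of this count. In the edgeR fit with TMM it would not have met this demand either. With the looser demand of an unadjusted p under 0.05 and 1 sign in each class, which was set after this count was seen, 61 genes passed, 39 higher and 22 lower. All 61 were among the 878 (0.366% of genes tested in that fit). The blocked fit pools the same 30 libraries, so this overlap is no separate test. The number was 53 with DESeq2 size factors, 57 with limma-voom and between 29 and 116 when 1 library was left out. Of the 61, 10 belonged to the lists, namely Bnip3, Ankrd37, Fam162a, Pkm, Pdk1, Pdk3, Hk1, Cda, Pdgfra and Notch3.

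Other members of the 61 are named here after their values were seen. Ankrd9, an ankyrin-repeat gene, rose by 0.53 ± 0.08 (adjusted p = 0.00162, edgeR) with means of 11.9 against 8.24 CPM, and Gadd45b, a gene of the response to stress and growth arrest, by 0.62 ± 0.10 (adjusted p = 0.00162, edgeR). Msmo1, Sc5d and Fdft1, which encode enzymes of cholesterol synthesis, rose by 0.66, 0.43 and 0.41. Among those that fell were Selenop, a selenium carrier, at -0.68, Stab1, a scavenger receptor of macrophages and some endothelium, at -0.55, and the lysozyme gene Lyz2 of myeloid cells at -0.49.

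A gene counted as following Car9 in only 1 class when it was called there and not in the other classes and when its change differed from the mean of the other classes at an adjusted p under 0.05. This was met in the Cp class by 9 genes (0.052% of 17318), 4 higher (Anxa8, Gdf15, Fhl2 and a predicted gene) and 5 lower (Tle6, Tprn, Actn1, Map4k2 and Bicd2), and 0 did in either other class. Tprn, Actn1, Map4k2 and Bicd2 are named after their values were seen. A joint test of both interaction terms called 3 (0.0173%), Anxa8, Gdf15 and Tprn. In this test 1943 genes had an unadjusted p under 0.05, and limma-voom called 2.

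Gdf15, a secreted stress factor that acts on appetite, showed the largest such difference. In the Cp class it had 29.5, 26.3, 18.5, 7.24 and 6.01 CPM in the high libraries against 4.59, 3.34, 3.29, 2.49 and 1.604 CPM in the low libraries, without overlap, and changed by 2.58 ± 0.40 (SE; adjusted p = 0.000892, edgeR). In the H2-Ea-ps class it had 0.331, 0.303, 0.269, 0.129 and 0.0711 CPM against 0.755, 0.508, 0.411, 0.358 and 0.149 CPM and in the third class 0.7205, 0.713, 0.6499, 0.3796 and 0.297 CPM against 0.941, 0.881, 0.851, 0.813 and 0.317 CPM, with changes of -1.02 ± 0.58 and -0.42 ± 0.45 that were not called. Every library of those classes was below 1 CPM. The Cp class differed from the mean of the others by 3.29 ± 0.53 (SE; adjusted p = 0.0203, edgeR).

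Anxa8, a calcium-dependent membrane-binding annexin, had 23.9, 23.4, 17.01, 9.79 and 7.97 CPM in the high libraries against 2.58, 1.65, 0.987, 0.887 and 0.759 CPM in the low libraries in the Cp class, a change of 3.53 ± 0.44 (SE; adjusted p = 0.000163, edgeR). Its level was highest in the H2-Ea-ps class, with 70.9, 59.9, 56.03, 53.7 and 53.1 CPM against 75.4, 74.5, 64.8, 53.7 and 35.9 CPM and a change of -0.01 ± 0.35. In the third class it had 17.9, 13.7, 6.38, 5.27 and 2.82 CPM against 4.099, 2.57, 2.36, 2.25 and 1.96 CPM, with 4 of 5 high libraries above all low ones and a change of 1.77 ± 0.40 (adjusted p = 0.0745, edgeR). The difference between the Cp class and the mean of the others was 2.65 ± 0.51 (SE; adjusted p = 0.0445, edgeR).

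Fhl2, a cofactor protein with LIM domains, ran over 9.03 to 13.7 CPM against 2.73 to 7.35 CPM in the Cp class, without overlap, at 1.14 ± 0.17 (adjusted p = 0.000792, edgeR). It ran over 38.4 to 48.3 CPM against 40.1 to 47.9 CPM in the H2-Ea-ps class and over 66.7 to 83.3 CPM against 56.9 to 77.7 CPM in the third. Tle6, a member of the Groucho family of corepressors, moved the other way, over 22.8 to 35.8 CPM against 39.9 to 49.5 CPM in the Cp class, without overlap, at -0.62 ± 0.13 (adjusted p = 0.00589, edgeR), where the H2-Ea-ps class had 0.41 ± 0.14 and the third class 0.01 ± 0.13. The groups overlapped for both genes in the other classes. Without 1 library the number of such genes ran from 0, without CT26 anti-CTLA4 36 or MC38 anti-PD-1 18, to 240 without PancO2 anti-PD-1 68, and it was 3 with limma-voom.

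**Figure D5:**
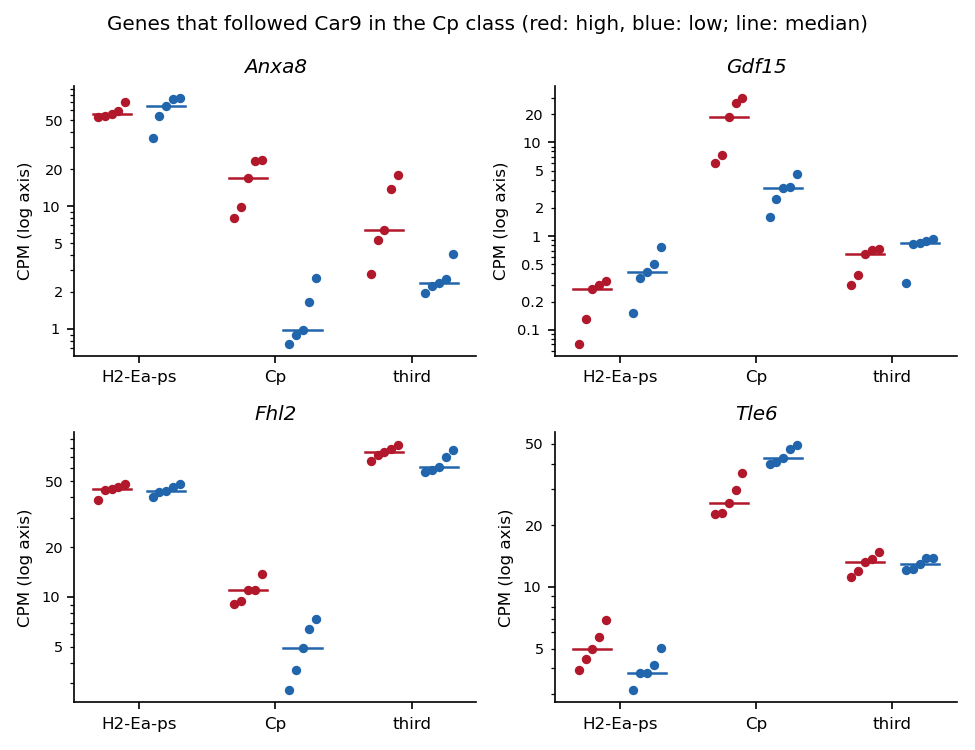
Levels of 4 genes called in the Cp class alone in each of the 30 libraries, in CPM on log axes, with red points for high and blue for low libraries and a line at the median of each 5. Within the Cp class Anxa8, Gdf15 and Fhl2 are higher and Tle6 lower in all 5 high libraries, while Gdf15 stays below 1 CPM in every library of the other classes.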

How the data were processed

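Poly-adenylated RNA of 36 tumours had been sequenced after TRIzol extraction with the TruSeq RNA kit V2. The submitters' processing notes name FastQC 0.11.5, Bowtie2, HTSeq 07.2 and mm10. The strand setting and annotation release are not given in the sources used here, so overlapping and antisense genes cannot be told apart. The authors deposited whole-number counts for 37417 genes, of which 32608 had a symbol. Their 5 HTSeq summary lines held 44.8% to 63.4% of reads and were left out of totals and tests. Totals of 11821687 to 41751023 counts set the precision, and counting intervals cover counting error only.

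From these counts, CPM were computed, the classes and the 15 high and 15 low libraries were drawn, and edgeR 4.0.16 (R 4.3.3) was run with its default expression filter, TMM and the robust quasi-likelihood test, with class as block. Nested contrasts gave each class, its difference from the mean of the other classes and a joint interaction test. P-values were two-sided and Benjamini-Hochberg adjusted over all genes tested, called under 0.05. The procedure was tested on simulated data. limma 3.58.1 and DESeq2 1.42.0 were alternatives, beside other scalings, filters, rankings, added terms and leaving out each library.

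Named genes were up to 4 called members of each list, the 12 protein-coding genes with the largest rise and fall at 5 CPM or more with 1 sign in all classes, and up to 4 genes that followed in only 1 class, with exceptions marked in the text. The members and lists were chosen with earlier results of these data known. Promoters came from RefSeq, which held 11588 of the 16676 genes tested. The values of 1 gene of the lists are not reported here.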

Additional observations from a re-analysis of the deposited data

Results flagged for a closer look

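A value that stood apart from the other 4 of its group by Dixon's test was found in 27 of 144 groups of 5 examined, where chance flags about 1 in 20 groups. Egln3 was 11.1 CPM in the high library CT26 anti-CTLA4 34 of the H2-Ea-ps class, and its summed erythroid markers were 73.2 CPM. In the third class, the high library PancO2 IgG 51 stood above its group with Slc2a1 at 327 CPM, Vegfa at 619.5 CPM and Ero1l at 1197 CPM. Ero1l was also high in PancO2 anti-PD-1 64, a high library of the H2-Ea-ps class, at 1463 CPM, where Notch3 was low at 3.88 CPM. Cda reached 20.2 CPM in MC38 anti-CTLA4 8, a high library of the Cp class, and 5.38 CPM in MC38 anti-CTLA4 10, a low library of the third class.

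In the Cp class, the low library MC38 anti-PD-1 18 had the lowest Egln1 at 107 CPM, the highest Notch3 at 335 CPM and the highest summed skeletal muscle markers at 757 CPM. The high library PancO2 IgG 48 of that class had Krt14 at 209.8 CPM, summed keratinocyte markers at 554 CPM, muscle markers at 162 CPM and neutrophil markers at 191 CPM. Its low library CT26 anti-PD-1 46 had Krt14 at 2.13 CPM and keratinocyte markers at 19.4 CPM. The low library PancO2 anti-CTLA4 62 of the H2-Ea-ps class had muscle markers at 169 CPM.

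Flags at levels near 0 were Trpv1 at 0.0301 CPM in CT26 anti-CTLA4 34 and 0.0652 CPM in CT26 anti-PD-1 42, Krt14 at 0.254 CPM in CT26 anti-CTLA4 35 and Krt19 at 0.358 CPM in CT26 anti-PD-1 42, all of the H2-Ea-ps class. In the third class they were Krt19 at 0.930 CPM in CT26 anti-CTLA4 32 and Gdf15 at 0.317 CPM in CT26 anti-PD-1 41. CT26 anti-CTLA4 32 also had the highest Notch3 of the high group there, at 8.59 CPM, and MC38 IgG 2 the highest Anxa8 of the low group, at 4.10 CPM.

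For 9 genes, the log2 change in the Cp class differed from the mean of the other classes at an edgeR adjusted p under 0.05. The difference was 3.29 for Gdf15, 2.65 for Anxa8, 1.52 for a predicted gene and 1.01 for Fhl2. It was -0.84 for Tle6, -0.77 for Tprn, -0.58 for Map4k2, -0.56 for Bicd2 and -0.39 for Actn1.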

How the results depend on the processing

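The 878 genes called over all classes became 464 with no filter beyond 1 count, 1339 with DESeq2's Wald test, 464 with the upper 4 and lower 4 of each class, 91 with all libraries above against all below the class median, 356 with PancO2 anti-PD-1 71 kept, 472 with a term for the mitochondrial share, and 48 when a log2 change of 1 in size was also asked. Other settings gave 612 to 1117, including 723 without the third class, a setting chosen after seeing the data. At least 10 counts in every library moved the split from 560 higher and 318 lower to 504 and 471. Genes called within the H2-Ea-ps class were 5 with limma-voom and 0 from its 10 libraries alone, within the Cp class 110 from its 10 alone, and within the third class 0 with both. Genes that followed in only 1 class were 3 with limma-voom. Krt5 turned to -0.24 (adjusted p = 0.89, edgeR) with the keratinocyte term, which contains Krt5. Leaving out 1 library gave between 409 and 1412 genes over all classes, the lowest without MC38 anti-PD-1 18 and the highest without MC38 anti-CTLA4 10, 491 without CT26 anti-PD-1 41, 520 without PancO2 anti-CTLA4 62 or PancO2 anti-PD-1 64, 546 without MC38 anti-PD-1 17, 560 without CT26 anti-CTLA4 36, and 565 and 581 without PancO2 anti-CTLA4 57 and 58. Within the Cp class it gave between 229 and 1502, the lowest without MC38 anti-PD-1 18 and the highest without CT26 anti-PD-1 46, 1497 without PancO2 anti-PD-1 68 and 268 without MC38 anti-CTLA4 8, with 8 of 10 counts moved by over 1.5 times. Ranges were 0 to 15 in the H2-Ea-ps class (15 without MC38 IgG 3), 0 to 218 in the third class, 0 to 240 for genes of only 1 class, 0 to 75 for differences among classes (75 without PancO2 anti-PD-1 68), and 0 for genes of all 3 classes. The cause of these shifts was not tested. No paired analysis was possible because the groups share no replicate number.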
